A study of Homo sapiens with 4 samples.

Results

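The genes described are 10 target genes of WNT/beta-catenin signalling, AXIN2, LGR5, ASCL2, RNF43, ZNRF3, NKD1, TCF7, LEF1, SP5 and NOTUM. They were taken by gene symbol from a table of 60048 human genes, each symbol matched 1 row, and all 10 passed the filter on low values. They were chosen because HCT116, the human colorectal carcinoma line used, carries activated beta-catenin.

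In WNT signalling, a secreted WNT ligand binds a Frizzled receptor with an LRP co-receptor at the cell surface, and this halts the complex that otherwise marks beta-catenin for degradation. The stabilised beta-catenin enters the nucleus and joins DNA-binding proteins of the TCF/LEF family to switch on target genes. Many of those targets act back on the pathway: AXIN2 is a scaffold of the destruction complex, RNF43 and ZNRF3 are related membrane ubiquitin ligases that remove Frizzled receptors, NKD1 binds Dishevelled, and NOTUM is a secreted enzyme that inactivates WNT ligands. LGR5 is a receptor for R-spondins and marks intestinal stem cells, and ASCL2 is a stem cell transcription factor of the intestine. In HCT116 the CTNNB1 gene is mutated, which stabilises beta-catenin without a ligand.

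The cells had the genotype RAD21-mAC, in which RAD21, a core subunit of cohesin, carries a tag that lets auxin trigger degradation of the protein. The control group (2 libraries) received DMSO, the solvent, and the auxin group (2 libraries) was given auxin, as indole-3-acetic acid at 0.5 mM, for 3 h; both groups carried the tag. All cells were labelled for 20 min with 0.5 mM 5-ethynyl uridine (EU), a uridine analogue through which newly made RNA is captured and sequenced (EU-seq). Auxin-treated cells without the tag were not analysed here, so RAD21 loss and auxin itself cannot be told apart, and nothing in the labels says that the 2 libraries of a group came from separate cultures, so p-values measure only the spread between these libraries.

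The values are a scaled signal summed over each gene's whole span, introns included, and the number of reads behind them is unknown. Deposited totals ran from 61135244 to 93113007 per library. Low values were whole multiples of 1 step in each library. Among genes of at least 10 kb, between 2 and 8 genes per library held 1 step, while 141 to 221 held 2 and 163 to 212 held 3, so a step was not treated as a read. The signal does not separate strands: the 2579 lncRNA genes lying inside 1 protein-coding gene on the opposite strand had a median signal per kb of 0.999 times that of the enclosing gene, against 1.01 for the 710 on the same strand. Of 8 markers of colorectal epithelium, all were tested and their summed signal per kb was 5769 and 6374 in control and 5323 and 5293 in auxin. The lowest marker was VIL1, at the 33.1st percentile of protein-coding genes. The sums for 5 blood markers were 10.2 and 12.4 in control and 15.5 and 15.5 in auxin, and those for 6 mesenchyme markers were 37.4 and 48.8 in control and 56.1 and 66.1 in auxin. Epithelial sums were thus lower, and blood and mesenchyme sums higher, in both auxin libraries. No marker of these lists was called by limma (0.732% of all tested genes were), and the part of these markers in the results was not tested. The sums for 3 neuronal markers overlapped, from 19.3 to 35.3.

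The members differed widely in their level of nascent signal. Per kb of span, and averaged over the 4 libraries, TCF7 had the highest scaled signal at 303, followed by RNF43 (231), AXIN2 (107), ZNRF3 (90.3), NKD1 (55.9), SP5 (32.0), NOTUM (28.4), ASCL2 (4.17), LEF1 (0.548) and LGR5 (0.458). Against 17767 tested protein-coding genes, whose median was 63.2, these levels placed TCF7 at the 86.5th percentile and RNF43 at the 80.5th, but LEF1 at the 3.72nd and LGR5 at the 2.65th. The stem cell markers LGR5 and ASCL2 (18.4th percentile) were thus among the low genes of this line. In that order, the ranges over libraries overlapped for the neighbours TCF7 and RNF43, AXIN2 and ZNRF3, SP5 and NOTUM, and LEF1 and LGR5, and did not overlap for the other 5 neighbouring pairs. Within libraries, AXIN2 was above ZNRF3 in 4 of 4, TCF7 above RNF43 and LEF1 above LGR5 in 3, and SP5 above NOTUM in 2. TCF7 and LEF1, both DNA-binding partners of beta-catenin, stood far apart in this order. The order averages control with auxin libraries. Per kb, RNF43 and TCF7 had means of 297 and 293 in control, and of 166 and 314 in auxin.

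**Figure D1:**
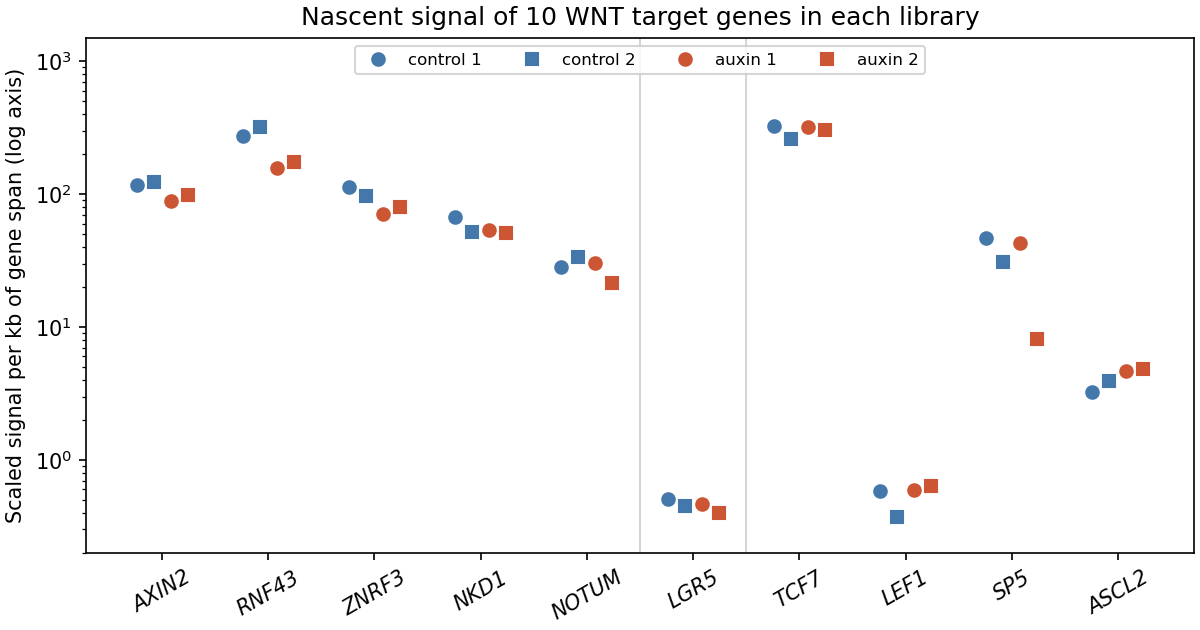
Scaled signal per kb of gene span (vertical log axis) of the 10 WNT target genes in 2 control libraries (blue) and 2 auxin libraries (red), ordered by role: feedback genes, the receptor LGR5, and transcription factors. Both auxin points lie under both control points for AXIN2, RNF43 and ZNRF3, and SP5 has 1 auxin library far under the other 3 libraries.

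Auxin against control was then compared gene by gene, which asks whether nascent transcription of WNT targets differed after 3 h of auxin. RNF43 fell, by 44.1%, and was the only one of the 10 members with a limma adjusted p under 0.05. The libraries are from bulk cells, so fewer cells transcribing a gene and less RNA per cell cannot be told apart. Over all genes, 289 of 39464 tested genes (0.732%) passed that threshold, 158 lower (0.4%) and 131 higher (0.332%). ZNRF3 and AXIN2 were also lower in both auxin libraries than in both controls, without passing the test. At an unadjusted p under 0.05 there were 3 members, beside 10.2% of all tested genes. Groups did not overlap for 3 members with auxin below control (19.6% of all tested genes) and for 2 members with auxin above control (18.6%). Among 10791 protein-coding genes with a mean scaled signal of at least 1000, a class chosen after the values were seen, 1.67% were called and 29.1% had both auxin libraries below both controls; of the 5 members in that class 1 was called and 3 lay below. The median log2 fold change of the 10 members was -0.22, against 0.0089 over all tested genes.

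The receptor-removing ligase RNF43 (ENSG00000108375, protein-coding, minus strand, chromosome 17, 58353676 to 58417582 of GRCh38) showed a scaled signal of 17600 and 20309 in control replicates 1 and 2, and of 9979 and 11198 in auxin replicates 1 and 2. The higher auxin library lay well under the lower control library. The group means (± SD, n = 2) were 18954 ± 1915 for control and 10588 ± 862 for auxin. On the log2 scale auxin differed from control by -0.84, with SE 0.12, a 95% interval of -1.11 to -0.56 and a limma adjusted p of 0.0149. Auxin was lower in each of the 4 possible pairings of libraries across groups, with log2 differences from -1.03 to -0.65, while the replicates differed by 0.21 in control and 0.17 in auxin. Among the 10791 protein-coding genes with high signal, 0.917% had a log2 fold change under that of RNF43. The call rested on control replicate 2: without that library the log2 fold change was -0.74 with a limma adjusted p of 0.0742. On the deposited scale, where the auxin libraries differ in total, it was -0.86 (SE 0.42) with an adjusted p of 1.

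The RNF43 locus holds other annotated genes, whose signal is shared. AC004687.2, a protein-coding gene of the same strand, contains all of RNF43, has 88.3% of its own span inside it, and passed the test as well at -0.76 on the log2 scale (SE 0.12; adjusted p by limma 0.0179). Outside the RNF43 span, the nearest tested genes, looked up after the members' values were seen, differed from each other. TSPOAP1-AS1, which ends 0.008 kb from RNF43, had -0.52 (SE 0.13; limma's adjusted p 0.137), and HSF5, 2.58 kb away on the other side, had 0.0019 (SE 0.20, adjusted p = 0.999).

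ZNRF3, the paralogue of RNF43 (ENSG00000183579, protein-coding, plus strand, chromosome 22, 28883572 to 29057488), had a scaled signal of 19538 and 16891 in control and of 12357 and 14016 in auxin. The groups did not overlap, but the gap between them was only about as wide as the distance between the control replicates. The group means (± SD, n = 2) were 18215 ± 1872 and 13187 ± 1173. Its log2 fold change was -0.47 (SE 0.12) with a 95% interval of -0.74 to -0.19, and limma gave an unadjusted p of 0.0035 and an adjusted p of 0.156. Signal at 2 lncRNA genes inside ZNRF3 was of like size per kb: ZNRF3-IT1 had a log2 fold change of -0.45 (SE 0.17) and the antisense ZNRF3-AS1 -0.35 (SE 0.21), and neither was called.

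The scaffold gene AXIN2 (ENSG00000168646, protein-coding, minus strand, chromosome 17, 65528563 to 65561648) had a scaled signal of 3906 and 4100 in control and of 2929 and 3263 in auxin. Replicates lay close together in each group and the groups did not overlap. The group means (± SD, n = 2) were 4003 ± 137 and 3096 ± 237. That is -0.37 on the log2 scale (SE 0.14) with a 95% interval of -0.69 to -0.055, and limma gave an unadjusted p of 0.0256 and an adjusted p of 0.370. AC004805.1, of the same strand, overlaps 71.2% of AXIN2 and had a log2 fold change of -0.18 (SE 0.15). Both tested genes flanking AXIN2 had positive values, 0.55 for RGS9 and 0.47 for CEP112, neither of them called (limma adjusted p = 0.363 and 0.182).

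The remaining feedback genes gave overlapping groups. NKD1 (ENSG00000140807, protein-coding, plus strand, chromosome 16, 50548396 to 50649249) had a scaled signal of 6751 and 5246 in control and of 5442 and 5119 in auxin. Control replicate 1 stood above the other 3 libraries, and the log2 fold change of -0.17 (SE 0.15, 95% interval -0.51 to 0.16, limma adjusted p = 0.834) became 0.018 without it. AC007608.1, AC007608.2 and AC007608.4 lie inside NKD1 and share its signal. Their log2 fold changes were -0.15 (SE 0.22), -0.51 (SE 0.24) and -0.26 (SE 0.23), and none of them was called. NOTUM (ENSG00000185269, protein-coding, minus strand, chromosome 17, 81952507 to 81961187) had a scaled signal of 244 and 292 in control and of 264 and 188 in auxin. Here the second auxin library was the lowest and the first lay between the controls (log2 fold change -0.26, SE 0.25, 95% interval -0.82 to 0.30, limma adjusted p = 0.856). It was -0.50 without auxin replicate 1 and -0.016 without auxin replicate 2.

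**Figure D2:**
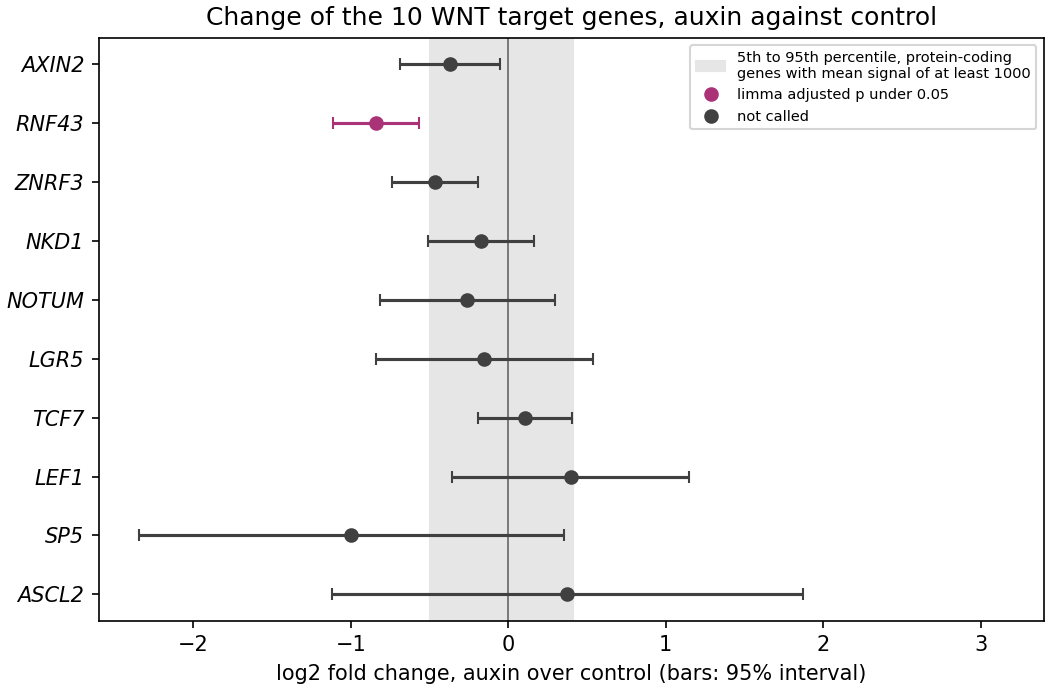
The log2 fold change of auxin over control (horizontal axis) for each of the 10 WNT target genes, as points with 95% intervals from limma. The grey band runs from -0.50 to 0.41, the 5th to 95th percentile of 10791 protein-coding genes with a mean scaled signal of at least 1000; the interval of RNF43 lies wholly to the left of the band, and the widest intervals belong to SP5 and ASCL2.

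LGR5 (ENSG00000139292, protein-coding, plus strand, chromosome 12, 71439798 to 71586310) had a scaled signal of only 74.6 and 66.5 in control and of 68.7 and 58.4 in auxin over a span of 146.5 kb. The groups overlapped, at -0.15 on the log2 scale (SE 0.31; limma's adjusted p 0.960). A 95% interval from -0.84 to 0.54 leaves room for changes of either sign at this level of signal, and the value ran from -0.26 without auxin replicate 1 to -0.037 without auxin replicate 2. TSPAN8, of the opposite strand, overlaps 1.43% of LGR5 and had a log2 fold change of 0.14 (SE 0.27). AC090116.1 and AC078860.3 lie inside LGR5 and did not pass the filter.

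Of the transcription factors, TCF7 (ENSG00000081059, protein-coding, plus strand, chromosome 5, 134114681 to 134148210) had the most signal, at 10865 and 8773 in control and 10793 and 10254 in auxin. Both auxin libraries lay between the controls. Its log2 fold change was 0.11 (SE 0.13, 95% interval -0.19 to 0.41, limma adjusted p = 0.909), and its sign turned (-0.047) without control replicate 2. Its paralogue LEF1 (ENSG00000138795, protein-coding, minus strand, chromosome 4, 108047545 to 108168956) had a scaled signal of 71.2 and 45.0 in control and of 72.2 and 77.5 in auxin over 121.4 kb. Both auxin values were above both controls, but control replicate 1 was nearly level with the auxin libraries (log2 fold change 0.40, SE 0.34, 95% interval -0.36 to 1.15, limma adjusted p = 0.825). Leaving out control replicate 1 gave 0.73, and leaving out control replicate 2 gave 0.070.

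ASCL2 (ENSG00000183734, protein-coding, minus strand, chromosome 11, 2268498 to 2270588) was at the edge of what the table resolves, with a scaled signal of 6.78 and 8.18 in control and of 9.81 and 10.1 in auxin. These are 8 and 8 steps in control and 11 and 9 in auxin. Auxin values were the higher, and the 95% interval of the log2 fold change of 0.37 ran from -1.12 to 1.87 (limma adjusted p = 0.953).

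SP5 encodes a zinc finger protein that binds GC-rich promoters and dampens other WNT targets (ENSG00000204335, protein-coding, plus strand, chromosome 2, 170715337 to 170718078). It had a scaled signal of 127 and 84.9 in control and of 117 and 22.5 in auxin. Auxin replicate 1 lay between the controls, and auxin replicate 2 was far under the other 3 libraries, at 20 steps against 83 to 150. The log2 fold change of -0.997 (SE 0.61, 95% interval -2.35 to 0.35, limma adjusted p = 0.677) therefore depended on a single library. It was 0.17 without auxin replicate 2 and -2.16 without auxin replicate 1.

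**Figure D3:**
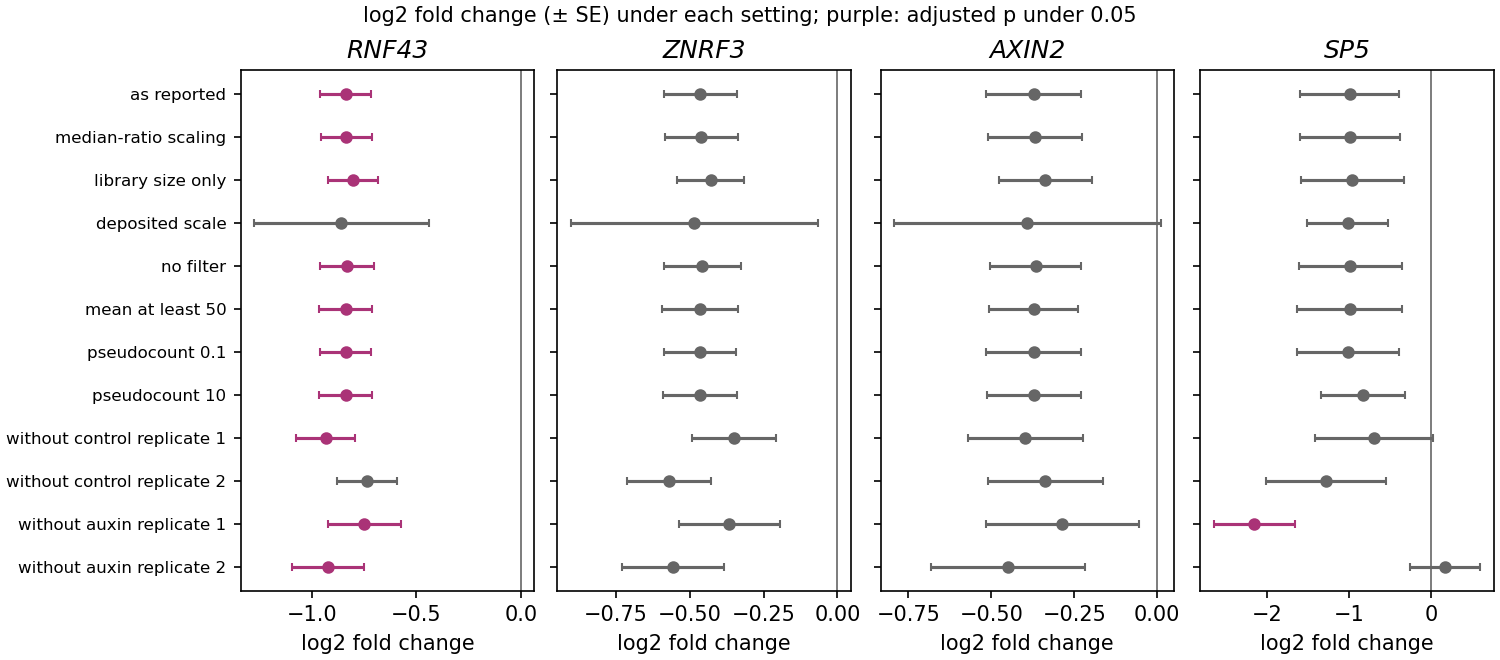
The log2 fold change of auxin over control with its SE (horizontal axes, 1 panel per gene, each with its own range) for RNF43, ZNRF3, AXIN2 and SP5 as reported and under 11 other settings; the fit with the replicate block, which adds calls for ZNRF3, AXIN2 and SP5, is not drawn. Purple points have a limma adjusted p under 0.05. In the fits without 1 auxin library and on the deposited scale, that p does not measure a gene's own spread. RNF43 stays between -0.93 and -0.74 and loses its call on the deposited scale and without control replicate 2, while SP5 moves from -2.16 to 0.17 with the auxin library left out.

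Promoter sequences from RefSeq (GRCh38.p14), from 250 bases before to 50 bases after a gene start, were given for 4 of the 10 members (RNF43, TCF7, LEF1 and SP5; 6 windows). They were searched on both strands for the letters CTTTGAT and CTTTGAA, forms of the sequence that TCF/LEF proteins bind. SP5 had 3 matches, starting 148, 109 and 84 bases before the gene start, and the other 5 windows had none. Of all 35116 windows, 6.86% held at least 1 match and 9 windows held at least 3. The shorter letters CTTTG, which lie within both longer forms and were also searched on both strands, occurred 5 times in the SP5 window, once in each RNF43 window and in the LEF1 window, 2 times in 1 TCF7 window and 0 times in the other, and at least once in 47.5% of all windows. The stretch before the gene start is shown for SP5, which carries the 3 matches, and for RNF43, the member that was called lower. For RNF43 only 202 bases are shown, because the gene span given above (to 58417582) reaches into the window's 250 bases. Capitals mark CTTTGAT or CTTTGAA on either strand in SP5, and CTTTG on either strand in RNF43. A match describes letters only, and no binding was measured here.
SP5, chr2:170715087-170715336, plus strand: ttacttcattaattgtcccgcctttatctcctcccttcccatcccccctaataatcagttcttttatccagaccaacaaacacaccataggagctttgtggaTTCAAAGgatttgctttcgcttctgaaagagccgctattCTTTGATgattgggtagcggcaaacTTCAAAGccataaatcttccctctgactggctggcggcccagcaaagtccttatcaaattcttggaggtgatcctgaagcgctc
RNF43, chr17:58417583-58417784, minus strand: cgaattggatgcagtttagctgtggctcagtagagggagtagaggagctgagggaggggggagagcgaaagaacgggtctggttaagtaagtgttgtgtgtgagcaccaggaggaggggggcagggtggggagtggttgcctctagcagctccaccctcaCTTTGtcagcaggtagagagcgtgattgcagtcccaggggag

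Genes around the members on the chromosome did not share a direction. Of the 20 nearest tested genes, 1 on either side of each member's span, 6 had both auxin libraries below both controls (19.6% of all tested genes did). In 4 both were above (18.6%), and 10 overlapped. Their median log2 fold change was 0.0084. None was called by limma at an adjusted p under 0.05, a threshold that 0.732% of all tested genes passed, and 5 had an unadjusted p under 0.05 (10.2% of all tested genes did).

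Other genes of the pathway were counted in 6 lists, with 96 of 103 genes tested. Of these 96, 4 were called, all lower, SOX9, CCND1, BAMBI and ROR1, where 0.732% of all tested genes were called in either direction and 0.4% lower. Further WNT target genes, those known from other work as targets but not among the 10 members, held 3 of the 4. This list, like the members and the other lists, was chosen with earlier results of these data known. Its counts are therefore not independent of those results. In that list 18 of 20 genes were tested, 3 were called lower, none was called higher and 15 were not called. An unadjusted p under 0.05 was found for 8 (10.2% of all tested genes). In 9 genes both auxin libraries were below both controls (19.6% of all tested genes), in 0 both were above (18.6%), and the median log2 fold change was -0.47, against 0.0089 over all tested genes. Of its 11 genes with a mean scaled signal of at least 1000, 7 lay below, where 29.1% of protein-coding genes of that class did.

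SOX9, a transcription factor of intestinal crypts, had a scaled signal of 4526 and 6526 in control and of 1257 and 1507 in auxin. The auxin libraries held less than the lower control by a wide margin. The log2 fold change was -1.98 (SE 0.19) with a limma adjusted p of 0.00183, and leaving out 1 library gave -2.24 to -1.72. The gene remained called on the deposited scale, where CCND1, BAMBI and ROR1 lost their calls. Its span overlaps the tested gene AC007461.1. CCND1, which encodes the G1 cyclin D1, had 27207 and 28593 in control and 17126 and 16078 in auxin. Its log2 fold change was -0.75 (SE 0.10), with an adjusted p by limma of 0.0111 that became 0.0591 without control replicate 2. BAMBI, a membrane decoy receptor for TGF-beta family ligands, had 618 and 488 in control and 238 and 179 in auxin, a difference of -1.41 on the log2 scale (SE 0.24; limma's adjusted p 0.0286). Its call was lost without control replicate 1 (adjusted p = 0.0827) and without control replicate 2 (0.0502).

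Several further targets were lower in both auxin libraries without passing the test, and were picked out here from their values. MYC, the growth-promoting transcription factor, had 14576 and 18868 in control and 10180 and 11671 in auxin, a difference of -0.61 on the log2 scale (SE 0.14; limma's adjusted p 0.112). SLC12A2, an ion cotransporter, had 5028 and 7402 in control and 3213 and 3476 in auxin, a difference of -0.87 on the log2 scale (SE 0.18; adjusted p 0.0729). For CDCA7 the log2 fold change was -0.82 (SE 0.18, adjusted p = 0.0917), and for the adhesion receptor CD44 it was -0.53 (SE 0.17, adjusted p = 0.270). Leaving out 1 library moved these values. The log2 fold change ranged from -0.78 to -0.42 for MYC, -1.14 to -0.59 for SLC12A2, -1.01 to -0.62 for CDCA7 and -0.78 to -0.26 for CD44. In contrast, the Ephrin receptor genes EPHB2 (-0.14, SE 0.14) and EPHB3 (0.34, SE 0.37) had overlapping groups.

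**Figure D4:**
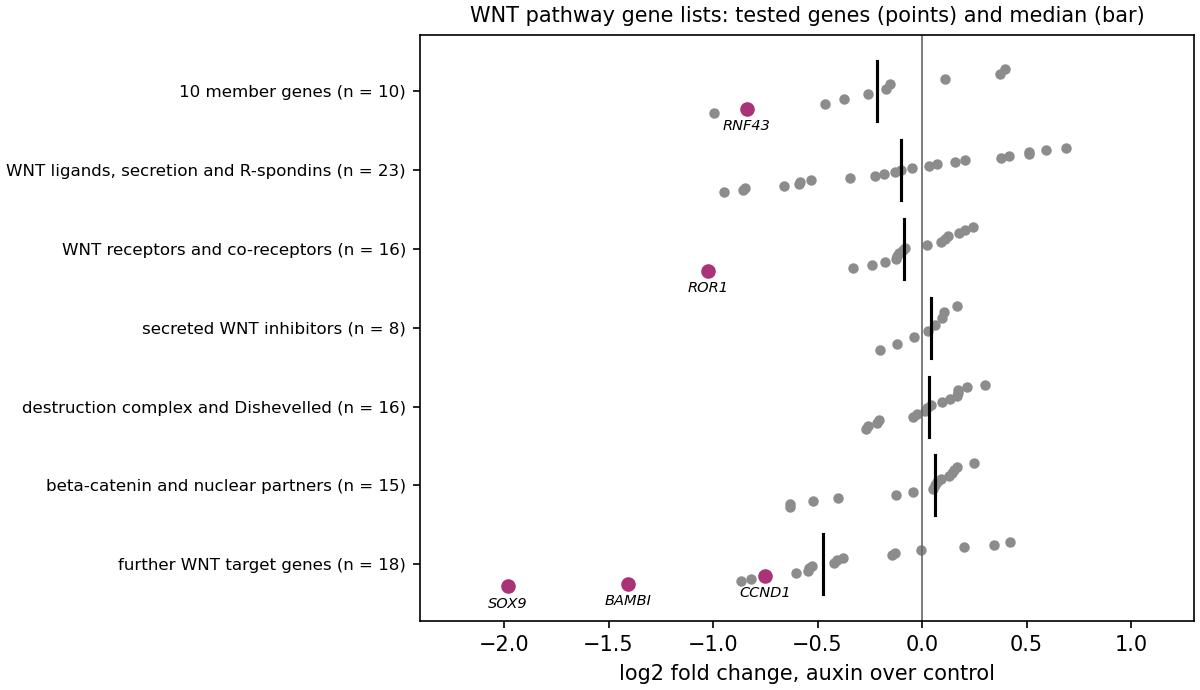
The log2 fold change of auxin over control (horizontal axis) for the 10 members and the tested genes of 6 WNT pathway lists, each gene a point and each list's median a black bar. Named purple points are the genes with a limma adjusted p under 0.05, all of them lower with auxin; the median is -0.47 among further WNT target genes and 0.035 in the destruction complex and Dishevelled list.

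The machinery upstream of the targets held 1 called gene in 5 lists. Among WNT receptors and co-receptors (16 of 17 tested), ROR1, a receptor of beta-catenin-independent WNT signalling, went from 2537 and 2283 in control to 1198 and 1171 in auxin, with a log2 fold change of -1.02 (SE 0.16) and a limma adjusted p of 0.0200. It lost its call without control replicate 1 (adjusted p = 0.0568) or control replicate 2 (adjusted p = 0.0502), and its span overlaps ROR1-AS1 and 2 other tested genes. The other 15 were not called, 1 of the 16 had an unadjusted p under 0.05, and the list's median was -0.088. No gene was called among ligands, secretion factors and R-spondins (23 of 25 tested, median -0.099), where 7 had an unadjusted p under 0.05 (10.2% of all tested genes), 9 lay below both controls (19.6%) and 7 above (18.6%). WNT16 had the smallest p there (-0.85 on the log2 scale, SE 0.21, limma's adjusted p 0.121), and WNT9A stood on the other side at 0.51 (SE 0.14, adjusted p = 0.173). Without control replicate 1 the log2 fold change was -1.15 for WNT16 and 0.70 for WNT9A. Without auxin replicate 2 it was -0.90 for WNT16. Secreted inhibitors (8 of 10 tested, median 0.045) had no call and no unadjusted p under 0.05, and DKK3 with the smallest p stood at 0.17 on the log2 scale (SE 0.24; adjusted p 0.925).

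In the destruction complex and Dishevelled list all 16 genes were tested, none was called by limma, 1 had an unadjusted p under 0.05 (10.2% of all tested genes), 1 lay below both controls and 8 above (18.6%), and the median was 0.035. The smallest p belonged to TNKS2, a tankyrase that acts on AXIN proteins, at 0.30 (SE 0.14, limma adjusted p = 0.484). AXIN1, the constitutive counterpart of AXIN2, had 8667 and 7699 in control and 9253 and 9729 in auxin, a difference of 0.22 on the log2 scale (SE 0.12; adjusted p 0.647). Beta-catenin and its nuclear partners (15 of 15 tested, median 0.063) had no call and 3 genes with an unadjusted p under 0.05 (10.2% of all tested genes). CTNNB1, the beta-catenin gene, had 6940 and 8425 in control and 8371 and 7701 in auxin, with overlapping groups (log2 fold change 0.070, SE 0.14, 95% interval -0.24 to 0.38, adjusted p = 0.958). The smallest p in the list was that of TCF7L2, the TCF family member prominent in intestinal epithelium, at 53366 and 56993 in control and 30372 and 41805 in auxin, a difference of -0.63 on the log2 scale (SE 0.14; adjusted p 0.0839). This was -0.39 without auxin replicate 1 and -0.86 without auxin replicate 2. The co-repressor genes TLE1 (-0.52, SE 0.16) and TLE3 (-0.40, SE 0.12) were also lower in both auxin libraries than in both controls, with limma adjusted p of 0.240 and 0.223. Their ranges over the fits that leave out 1 library were -0.70 to -0.33 and -0.50 to -0.30. The other TLE genes of the list did not share this. TLE5 was higher in both auxin libraries than in both controls (0.25, SE 0.13, limma adjusted p = 0.590), and TLE2 and TLE4 had overlapping groups.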

How the data were processed

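Nascent RNA was sequenced in 4 EU-seq libraries, grouped and numbered by the sample titles. The deposited table gives a scaled signal per gene and library, 1 factor per column that the labels do not explain; the submitters' processing notes name Trimmomatic 0.39, Bowtie2 2.4.5, deepTools 3.5.1, hg38 and dm6, and the counter and annotation are not given in the sources used here. Per the labels' protocols, 200 µg of human RNA was mixed with 20 µg of fly RNA before capture. The gene span column (another quantity, deposited in bases) was used for signal per kb. Starts count from 0 and are printed 1 higher. A gene was tested where at least 2 libraries reached 10 (after allowing for library totals) and its total was 15 or more. Scaling used the trimmed mean of M-values (30% and 5% trimmed), which removes any change in total nascent RNA. The log2 of the scaled value plus 1 was fitted with limma 3.58.1 in R 4.3.3 (lmFit, eBayes with trend, no further term), with Benjamini and Hochberg's adjustment at 0.05; fold changes on this scale understate changes of low genes. On data simulated for this comparison, 27.2% of 2-fold changes were recovered (38478 genes tested) and 73.5% of 4-fold changes (38455 genes tested), so a gene not called may still have changed. The changed genes were drawn at random over all signal levels, so these shares are averages and do not give the recovery for a given member. Simulated libraries were drawn independently, with no shared difference between those of the same replicate number, so the shares hold only for such data. By rule the text names all 10 members, the called genes of each list or else the gene with the smallest p, and genes overlapping a member. Flanking genes and MYC, SLC12A2, CDCA7, CD44, EPHB2, EPHB3, WNT9A, AXIN1, CTNNB1, the TLE genes and the epithelial markers named singly were added after their values were seen. Members and lists were chosen with earlier results of these data known. Other settings were median-ratio and library-size scaling, the deposited scale, no filter, a mean of at least 50, pseudocounts of 0.1 and 10, each library left out, an adjusted p under 0.1, and a block for the replicate number. Tables and figures used Python 3.11.15, pandas 2.3.3 and matplotlib 3.10.9.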

Additional observations from a re-analysis of the deposited data

How the results depend on the processing

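Scaling by median ratios or by library size, dropping the filter, requiring a mean of 50, and pseudocounts of 0.1 and 10 left 1 member called and kept the count over all genes within 1.5 times of 289. On the deposited scale the calls were 55 over all genes, 0 members and 1 pathway gene; with an adjusted p under 0.1 they were 548, 1 and 7. Leaving out each library gave 132 to 681 genes, 0 to 2 members and 2 to 10 pathway genes (ASCL2 was under the filter without either auxin replicate, and with a mean of 50). Over those 4 fits the log2 fold change ranged from -0.36 to 0.018 for NKD1, -0.047 to 0.27 for TCF7, -2.16 to 0.17 for SP5, -0.12 to 0.46 for DKK3 and -0.060 to 0.21 for CTNNB1, each with a change of sign, and without one from 0.070 to 0.73 for LEF1, -0.50 to -0.016 for NOTUM and -0.26 to -0.037 for LGR5; the cause was not tested. A group left with 1 library was assumed to vary like the other group. In the fits without 1 auxin library, and on the deposited scale, limma gave every gene the variance of the fitted trend. Calls and p-values of those fits therefore do not measure a gene's own spread. Nothing in the labels ties libraries of one number together, and with 2 pairs the data cannot settle it. Across tested genes, the replicate difference in control and that in auxin had Pearson's r 0.231, and for protein-coding genes averaging 1000 or more, the class of RNF43, ZNRF3 and AXIN2, r was 0.634; genes are not independent replicates. With the replicate block 4273 genes (10.8%), 4 members (RNF43, ZNRF3, AXIN2 and SP5, all lower) and 23 pathway genes (19 lower) were called. That fit also gave every gene the variance of the trend, so its calls do not measure how well a gene's pairs agree. SP5 was called although its log2 difference was -0.12 between libraries numbered 1 and -1.87 between those numbered 2. Reads per value are unknown, and low members such as ASCL2, LGR5 and LEF1 could hide changes of either sign.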

Other observations

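CDH1, the cadherin that holds beta-catenin at cell junctions, was in the epithelial marker list and was higher in both auxin libraries, at 11060 and 11199 in control and 16109 and 16554 in auxin. Its log2 fold change was 0.55 (SE 0.11) with a limma adjusted p of 0.0578. With scaling by library size only it passed the threshold (0.59, adjusted p 0.0394). As reported, none of the 8 epithelial markers was called, CDH1 included, where 0.732% of all tested genes were called. EPCAM, KRT8, KRT18, KRT19, VIL1 and ELF3 went the other way, with both auxin libraries below both controls (19.6% of all tested genes), and CLDN7 overlapped.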
